A study of Mus musculus with 6 samples.

Results

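Death receptors and caspases carry the signal for programmed cell death, and 8 genes of that machinery were followed here in tumours of human neuroblastoma cells grown in mice: FAS, TNFRSF10A, TNFRSF10B, FADD, CFLAR, CASP8, CASP9 and APAF1. They were chosen by name, for their place in that machinery and with earlier results of these data known, and all 8 were measured, out of 18417 named genes on the array. The tumours grew from SK-N-BE(2), an established neuroblastoma line with an amplified MYCN gene, placed in the adrenal gland of NSG mice, whose immune system has no T, B or natural killer cells. In the BL-8040 group, 3 mice received 400 µg of BL-8040, which blocks the chemokine receptor CXCR4, under the skin daily for 14 days from day 7 after the injection. The control group was 3 mice with the same tumour cells in the same host; what they were given is not stated in the sources used here, and the animals' age is not given either. RNA of each tumour was read on 1 array of human probe sets (Affymetrix Human Gene 1.0 ST), as a log2 signal per probe set. All 6 tumours came from a single cell line, and the host lacks T, B and natural killer cells. Cell killing by these lymphocytes is therefore outside what this model holds.

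In the extrinsic route of apoptosis, a ligand binds a death receptor on the cell surface, the receptor gathers the adaptor FADD, and FADD brings caspase-8 molecules together so that they activate each other. c-FLIP, the product of CFLAR, resembles caspase-8 and takes its place in that complex. In the intrinsic route, cytochrome c leaves the mitochondria and joins APAF1 in the apoptosome, a wheel-shaped complex that activates caspase-9, and both routes converge on executioner caspases. CASP8 is often silenced in neuroblastoma with amplified MYCN, which makes its level the first item of interest in this line.

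The arrays were alike in overall signal, with array medians from 5.35 to 5.42. BL-8040 replicate 3 stood apart: its score on the first principal component, which held 37.2% of the variance, was 22.7, against scores between -10.1 and 0.74 for the other 5 arrays. The differences of several genes are therefore also given without this array, while the marker means and counts include it. Of 12 adrenergic neuroblastoma markers, 10 were measured, with mean signals between percentile 49.2 for ELAVL4 and percentile 99.9 for MYCN among all genes, so these markers of the labelled tumour type had middling to very high signals. The mean of these markers was between 8.06 and 8.72 in BL-8040 tumours and between 8.55 and 8.89 in control tumours, lowest in BL-8040 replicate 3, and 9 of the 10 had a lower mean after BL-8040, none at an adjusted p under 0.05. In a bulk tumour, fewer cells of a type and less RNA per cell cannot be told apart, and how much mouse RNA bound the human probes was not measured.

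None of the 8 genes differed between BL-8040 and control tumours beyond the spread between mice. In limma, 0 of 8 had a Benjamini-Hochberg adjusted p under 0.05 over all genes, and 0 of 8 had an unadjusted p under 0.05; among all 18417 genes the shares were 0% and 7.72%. The adjusted p of the 8 genes lay between 0.705 for CASP8 and 0.942 for FADD. In 0 of 8 genes did the 3 BL-8040 values lie wholly above or below the 3 control values, a separation seen in 14% of all genes (4.93% higher and 9.05% lower). The mean was higher after BL-8040 in 5 genes (FAS, FADD, CFLAR, CASP8, APAF1) and lower in 3 (TNFRSF10A, TNFRSF10B, CASP9), where 41.5% of all genes had a mean above control. The median difference was 0.03 log2 units, against -0.02 over all genes, and the median size of the difference, sign aside, was 0.058 log2 units against 0.078 over all genes.

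**Figure D1:**
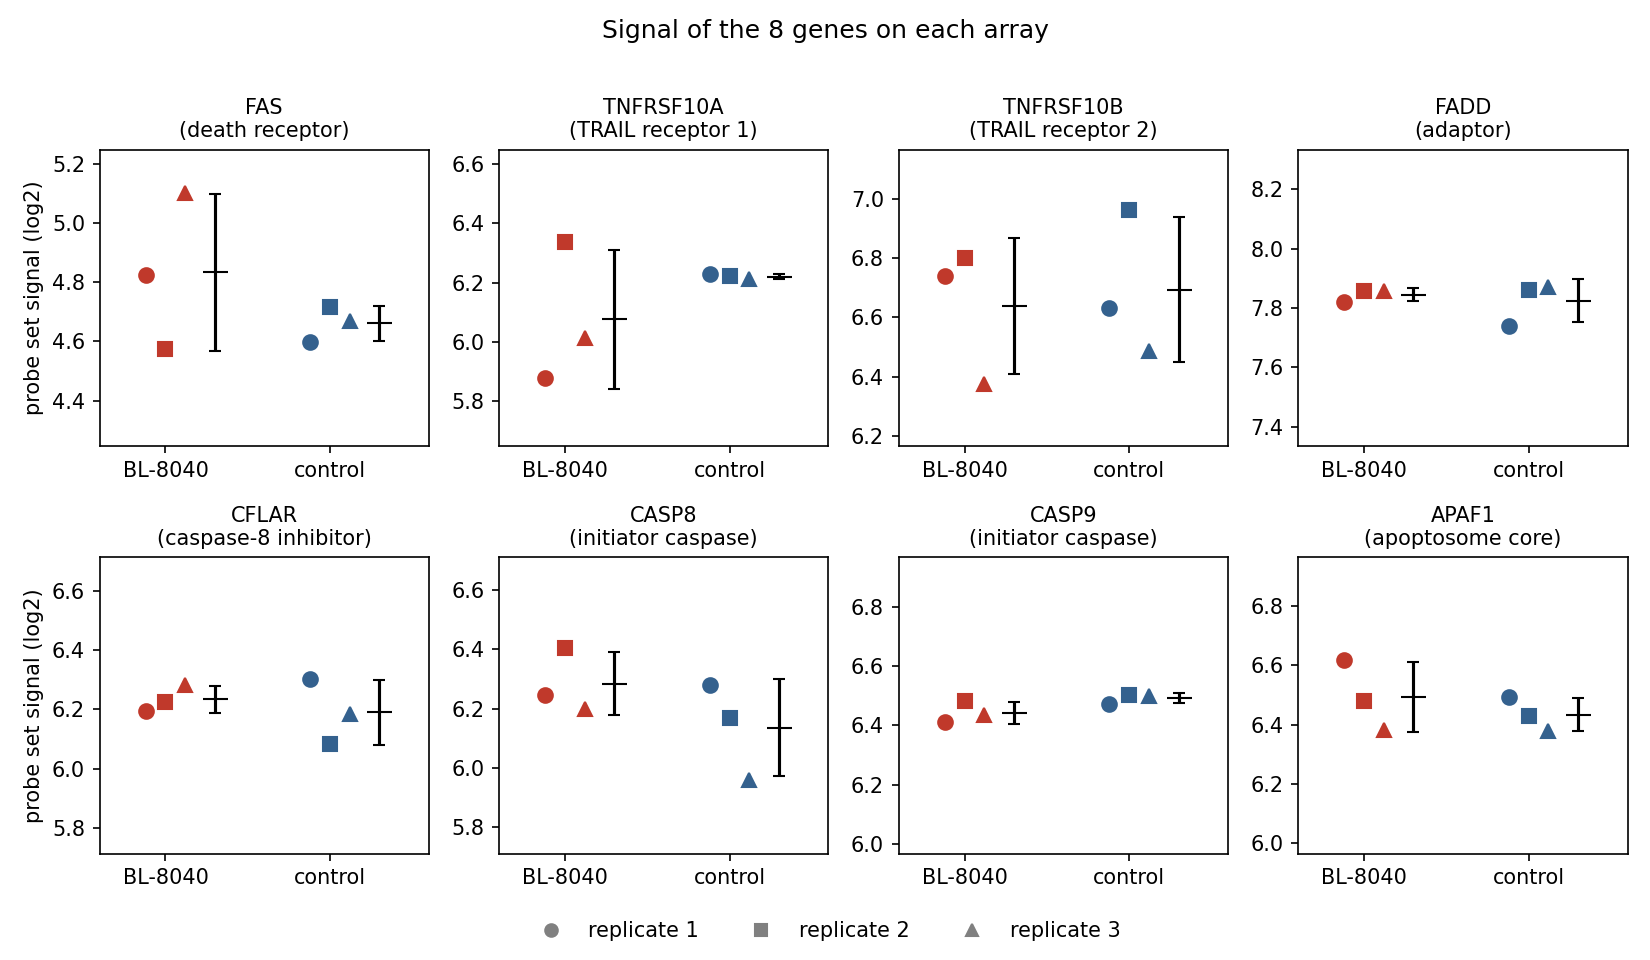
Log2 signal of each of the 8 genes on each array (y axis; every panel spans 1 log2 unit), with the 3 BL-8040 tumours in red on the left and the 3 control tumours in blue on the right; symbols mark replicate numbers, and the bar and whiskers beside each group are its mean and SD. In every panel the values of both groups overlap, and the spread is widest in FAS, TNFRSF10A and TNFRSF10B.

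CASP8, the initiator caspase of the extrinsic route, had log2 signals of 6.25, 6.41 and 6.20 in BL-8040 replicates 1, 2 and 3, against 6.28, 6.17 and 5.96 in control replicates 1, 2 and 3. BL-8040 replicate 2 was the highest tumour and control replicate 3 the lowest, but control replicate 1 lay above the other two treated tumours. The group means were 6.28 ± 0.11 in treated and 6.14 ± 0.16 in control tumours (SD, n = 3 each), a difference of 0.15 ± 0.10 log2 units (SE), or 1.11-fold. The 95% interval of the fold reached from 0.948 to 1.30, the limma adjusted p was 0.705, and the exact two-sided permutation test gave p = 0.3, where 3 arrays against 3 cannot give less than 0.1. The CASP8 difference was 0.06 without control replicate 3, 0.09 when BL-8040 replicate 2 was left out and 0.19 when BL-8040 replicate 3 was.

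The CASP8 signal was not among the dim ones of the array. Its mean of 6.21 over the 6 arrays lay at percentile 52.8 of all genes. As a picture of dim signals, 341 olfactory receptor genes, a family with little expression outside the nose, had a median of 3.05 and a highest mean of 5.57. The means of 7 of the 8 genes lay above that highest value; the exception was FAS. Probe sets differ in how well they bind, no detection call was used here, and host RNA can add to a signal, so these ranks describe brightness and do not measure how many transcripts were present.

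**Figure D2:**
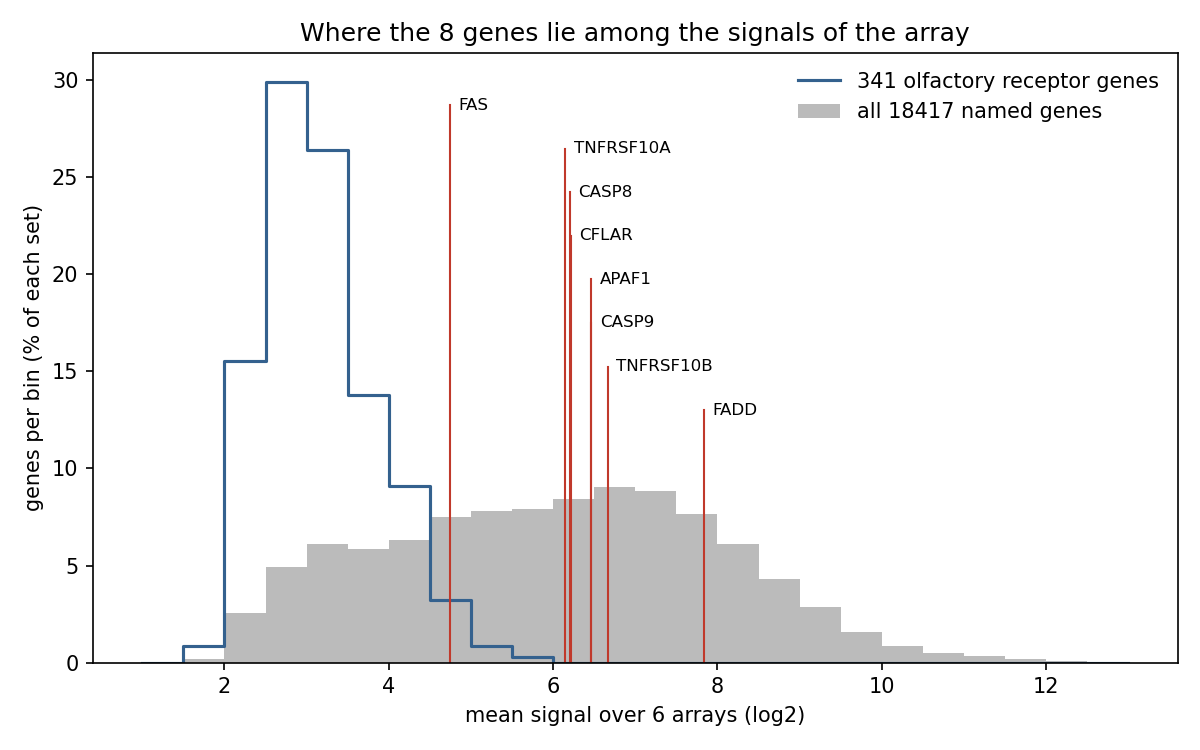
Distribution of the mean log2 signal over 6 arrays (x axis) for all 18417 named genes (grey bars) and for 341 olfactory receptor genes (blue outline), as percent of each set per bin (y axis), with the means of the 8 genes as red lines whose heights only keep the labels apart. CASP8 lies near the middle of all genes at 6.21, and FAS at 4.75 is the only one of the 8 within the range of the olfactory receptor genes.

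Among the receptors, FAS encodes the receptor of Fas ligand. Its log2 signals were 4.82, 4.57 and 5.10 in BL-8040 replicates 1, 2 and 3, against 4.60, 4.72 and 4.67 in control replicates 1, 2 and 3. The treated tumours held both the highest and the lowest value, and their SD was 0.26 against 0.060 in controls. FAS differed by 0.17 ± 0.12 log2 units (SE), with a 95% interval from -0.11 to 0.45 and a limma adjusted p of 0.723. BL-8040 replicate 3 was the highest tumour; without that array the FAS difference was 0.04, while without BL-8040 replicate 2 it was 0.30. BL-8040 replicate 3 also had the highest mean signal of the 6 arrays in each list of markers of other cell types, though single markers differed. Whether human tumour cells or mouse host cells gave these signals was not tested. In that array the 6 measured adrenal cortex markers averaged 4.15 and the 3 measured erythroid markers 4.46. The 8 fibroblast and pericyte markers averaged 9.06 there, with means between 8.73 and 9.06 over the BL-8040 tumours and between 8.78 and 8.87 over the control tumours, and 6 of the 8 were higher after BL-8040. BL-8040 replicates 1 and 2 averaged 8.92 and 8.73. BL-8040 replicate 3 was the highest tumour for COL1A1, COL1A2, COL3A1, PDGFRA and RGS5 and the lowest for DCN and PDGFRB. The 8 endothelial markers averaged 5.29 there, with means between 5.05 and 5.29 over the BL-8040 tumours and between 5.14 and 5.19 over the control tumours, and 3 of the 8 were higher. BL-8040 replicate 3 was the highest tumour for KDR, TEK, CLDN5 and EMCN and the lowest for PECAM1, CDH5 and VWF. The 8 macrophage and leukocyte markers averaged 4.87 there, with means between 4.68 and 4.87 over the BL-8040 tumours and between 4.71 and 4.80 over the control tumours, and 5 of the 8 were higher. BL-8040 replicate 3 was the highest tumour for PTPRC, LYZ and ITGAM and the lowest for AIF1. These counts of higher markers include BL-8040 replicate 3 and were not made without it. None of these markers had an adjusted p under 0.05, and their part in the FAS values was not tested. The mean FAS signal lay at percentile 29.6 of all genes, and 3.23% of the olfactory receptor genes were brighter.

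TNFRSF10A and TNFRSF10B encode the receptors DR4 and DR5, through which the ligand TRAIL starts apoptosis. TNFRSF10A had 5.88, 6.34 and 6.01 in BL-8040 replicates 1, 2 and 3, against 6.23, 6.22 and 6.21 in control replicates 1, 2 and 3. The 3 controls lay within a few hundredths of a log2 unit of each other, and the treated tumours lay on both sides of them, 2 below and 1 above. The group means were 6.08 ± 0.23 in treated and 6.22 ± 0.01 in control tumours (SD, n = 3 each), with a difference of -0.14 ± 0.11 (SE), or 0.905-fold, and a limma adjusted p of 0.739. The TNFRSF10A difference was -0.27 without BL-8040 replicate 2, and -0.04 when BL-8040 replicate 1 was left out instead.

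TNFRSF10B was the most variable of the 8 genes. Its log2 signals were 6.74, 6.80 and 6.38 in BL-8040 replicates 1, 2 and 3, against 6.63, 6.96 and 6.49 in control replicates 1, 2 and 3, a span of 0.59 log2 units where the median gene spanned 0.30. Each group held 1 low tumour, its replicate 3. The spread within groups was at percentile 94.8 of all genes. The TNFRSF10B difference was -0.06 ± 0.14 (SE), with a 95% interval from -0.38 to 0.27 and a limma adjusted p of 0.924, and its sign turned without BL-8040 replicate 3 (0.08) and without control replicate 2 (0.08).

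FADD, the adaptor that links both receptor types to caspase-8, was the brightest of the 8 genes by rank, at percentile 80.7. Its log2 signals were 7.82, 7.86 and 7.86 in BL-8040 replicates 1, 2 and 3, against 7.74, 7.86 and 7.87 in control replicates 1, 2 and 3. Apart from control replicate 1, which was the lowest, the tumours were nearly level. FADD differed by 0.02 ± 0.07 log2 units (SE), the smallest difference of the 8 genes, with a 95% interval of the fold from 0.907 to 1.13 and a limma adjusted p of 0.942. The sign turned without control replicate 1 (-0.02).

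CFLAR, the inhibitor of caspase-8, was the only one of the 8 genes with a second probe set of its own. The brighter probe set gave 6.19, 6.23 and 6.28 in BL-8040 replicates 1, 2 and 3, against 6.30, 6.08 and 6.19 in control replicates 1, 2 and 3. The dimmer one gave 6.22, 6.23 and 6.09 in BL-8040 replicates 1, 2 and 3, against 6.35, 6.19 and 5.91 in control replicates 1, 2 and 3. On both probe sets control replicate 1 was the highest, but the lowest tumour was control replicate 2 on the brighter and control replicate 3 on the dimmer. The differences were 0.04 ± 0.08 and 0.03 ± 0.12 log2 units (SE), and neither the brighter (limma adjusted p = 0.885) nor the dimmer passed. Without control replicate 2 the difference of the brighter CFLAR probe set was -0.01. The annotation assigns the probe sets to different transcripts of the gene, so they need not read the same isoforms of c-FLIP.

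CASP9, the initiator caspase of the intrinsic route, was the steadiest of the 8 genes. Its log2 signals were 6.41, 6.48 and 6.44 in BL-8040 replicates 1, 2 and 3, against 6.47, 6.50 and 6.50 in control replicates 1, 2 and 3. Only BL-8040 replicate 2 reached into the control range, above control replicate 1. The 6 tumours spanned 0.092 log2 units, and the spread within groups was at percentile 1.3 of all genes. CASP9 differed by -0.05 ± 0.07 (SE), with a 95% interval of the fold from 0.871 to 1.07 and a limma adjusted p of 0.850. The SDs were 0.036 in treated and 0.017 in control tumours. The limma SE is larger than these SDs alone would give, since it draws on the spread of all genes. After quantile normalization or median centring of the arrays the CASP9 groups did not overlap, as was so for 15% and 13.3% of all genes.

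APAF1, the scaffold of the apoptosome, had 6.62, 6.48 and 6.38 in BL-8040 replicates 1, 2 and 3, against 6.49, 6.43 and 6.38 in control replicates 1, 2 and 3. BL-8040 replicate 1 was the highest tumour, and the lowest tumours of both groups were level. APAF1 differed by 0.06 ± 0.08 log2 units (SE), with a 95% interval of the fold from 0.916 to 1.19 and a limma adjusted p of 0.854. The difference was -0.0025 without BL-8040 replicate 1, and 0.12 when BL-8040 replicate 3 was left out instead.

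The intervals also give a range for the difference in signal of each gene, though not for its number of transcripts. The 95% interval of the fold lay within 1.5-fold up or down for all 8 genes, as it did for 96.5% of all genes. Its lowest end was 0.760 (TNFRSF10A) and its highest 1.37 (FAS). The interval reached 0.15 log2 units to each side in CASP9 and 0.33 in TNFRSF10B, against 0.20 for the median gene.

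**Figure D3:**
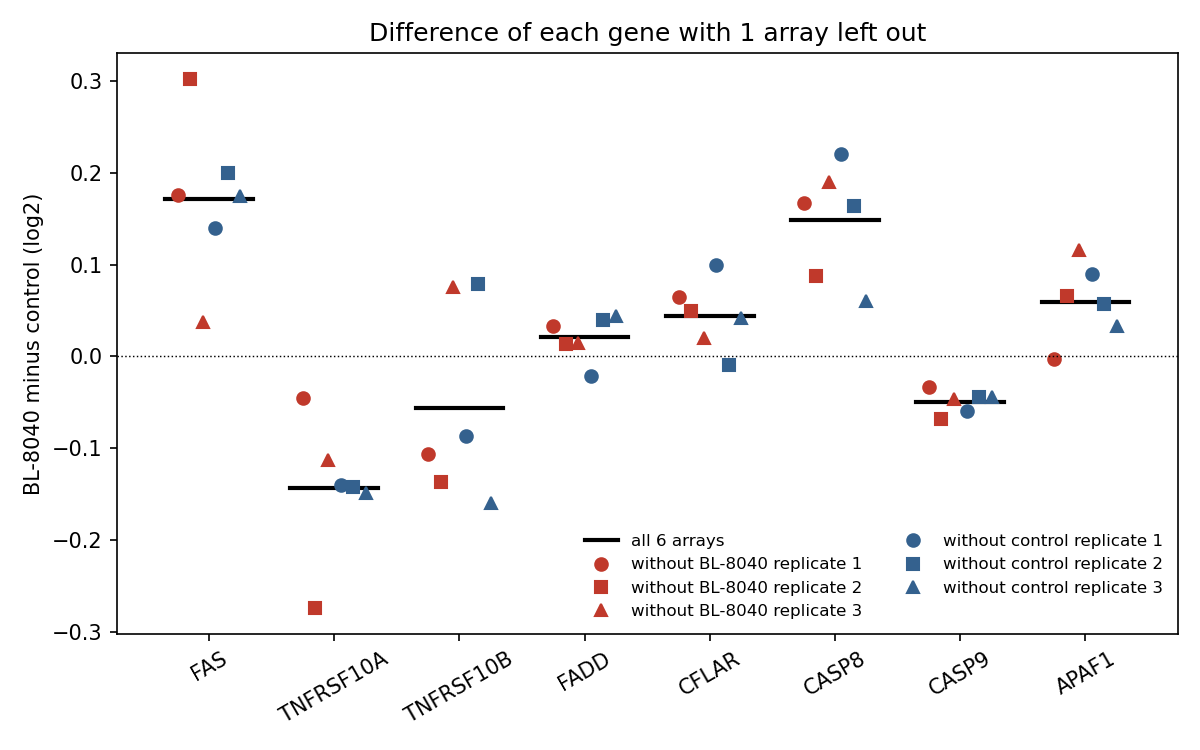
Log2 difference, BL-8040 minus control (y axis), of each of the 8 genes with all 6 arrays (black line) and with each array left out in turn (red symbols for BL-8040 arrays, blue for control arrays). FAS ranges from 0.04 to 0.30 and TNFRSF10A from -0.27 to -0.04 with the array left out, while CASP9 stays between -0.07 and -0.03.

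By the Pearson correlation of log2 signals over the 6 arrays, the genes most like CASP8 among the other 18416 were MARCHF7 (r = 0.987), PREPL (r = 0.987) and OSGIN2 (r = 0.986). Their Spearman correlations were 0.943, 0.943 and 1. Without control replicate 3 and BL-8040 replicate 2, the tumours farthest from the CASP8 median, r was 0.836 for MARCHF7, 0.798 for PREPL and 0.966 for OSGIN2. Over so few arrays, 228 genes correlated with CASP8 at r above 0.9, and arrays share their labelling and normalization, so these values describe likeness of pattern alone.

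Around these 8 genes, 58 others of the same machinery or of related families were placed in 7 lists, of which 50 were measured. Among the related ones were CASP4, an inflammatory caspase, and CASP14, which is not part of the apoptotic routes. In limma, 0 of 50 had an adjusted p under 0.05, and 0% of all genes did. At an unadjusted p under 0.05 stood 6 genes, or 12%, all with a lower mean after BL-8040, where 5.08% of all genes were lower and 2.64% higher at that threshold. Without BL-8040 replicate 3 the 6 became 3, CASP4, CASP14 and TRADD, and without control replicate 2 they became 2, CASP14 and TRADD. These are 6% and 4% of the 50, where 6.24% and 4.91% of all genes reached that threshold, in either direction, without the same arrays. Without each of the other arrays the pathway share stayed above that of all genes. It was 10% against 6.77% without BL-8040 replicate 1 and 12% against 8.06% without BL-8040 replicate 2. It was 16% against 9.98% without control replicate 1 and 8% against 5.53% without control replicate 3. These fits share most of their arrays, so they do not count as separate evidence. With all 6 arrays kept but median centred, the share was 6% against 7.37% of all genes. The 50 genes had a median difference of -0.02, equal to that of all genes at this precision, with 22 higher and 28 lower.

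**Figure D4:**
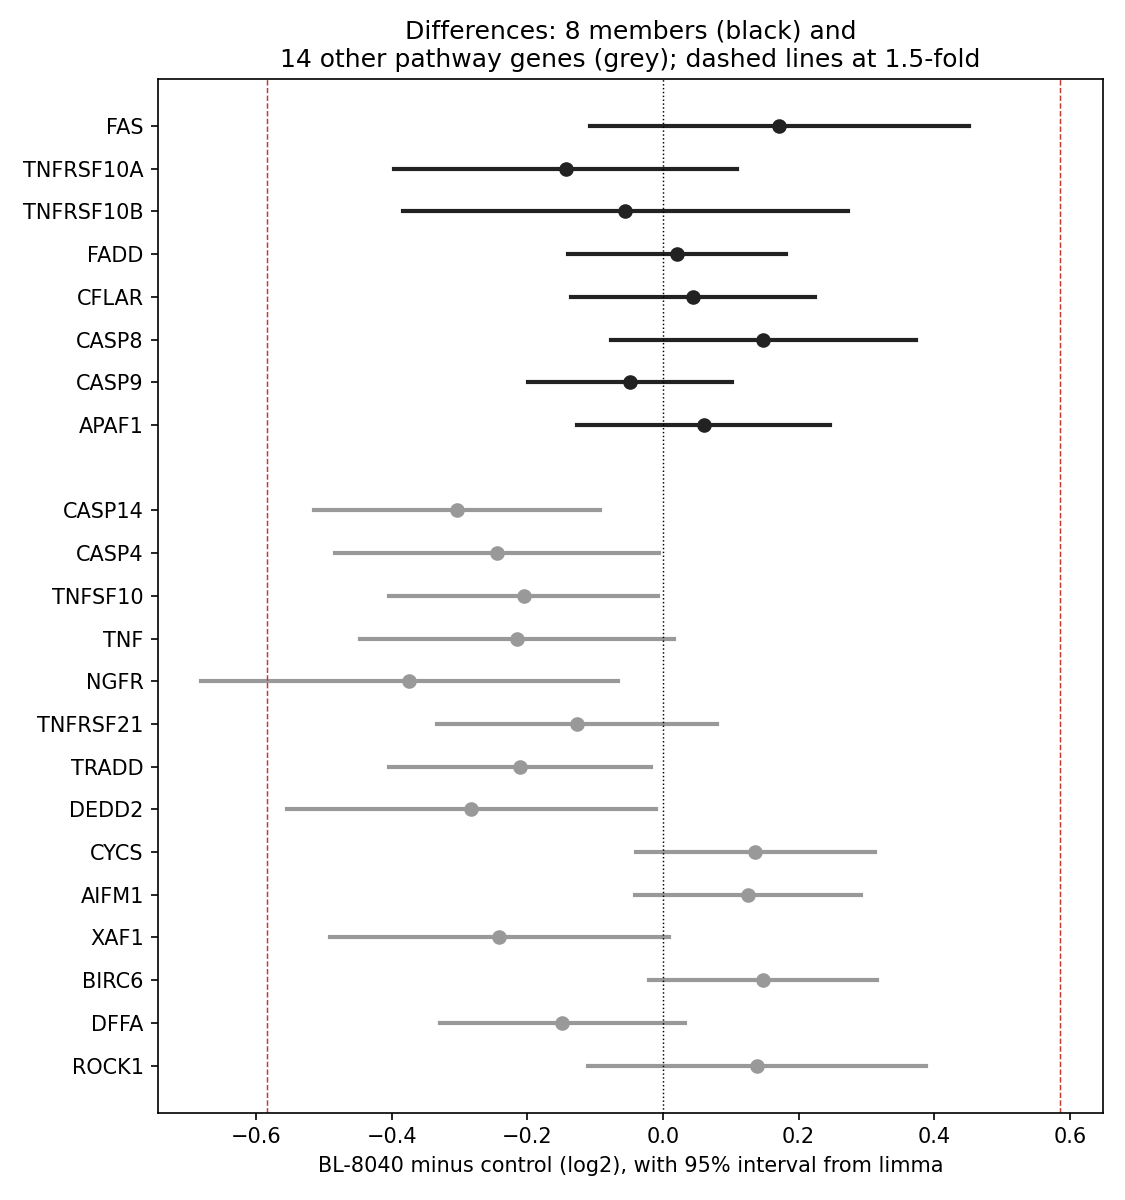
Log2 difference, BL-8040 minus control (x axis), with its 95% interval from limma, for the 8 genes (black) and for the 14 other pathway genes with the smallest p of their lists (grey); dashed lines mark 1.5-fold. The intervals of all 8 genes include 0 and stay inside the dashed lines, whereas that of NGFR extends past the lower one.

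Of the ligands, 5 of 6 were measured, with signals at or below percentile 27.5, 1 higher and 4 lower, and a median difference of -0.13. TNFSF10, which encodes TRAIL, had 2.70, 2.68 and 2.47 in BL-8040 replicates 1, 2 and 3, against 2.81, 2.91 and 2.74 in control replicates 1, 2 and 3. All 3 treated values lay below the controls, by 0.21 ± 0.09 log2 units in the mean (SE; limma adjusted p = 0.644). The TNFSF10 difference was -0.13 without BL-8040 replicate 3, and its signal was at percentile 4.73 of all genes, among the dimmest of the array. TNFSF10 did not reach an unadjusted limma p under 0.05 after median centring, with array weights or with robust moderation and a variance trend. Nor did it without BL-8040 replicate 3, control replicate 1 or control replicate 2. TNF, which encodes tumour necrosis factor, differed by -0.22 ± 0.10 (SE, limma adjusted p = 0.646), with 1 control tumour within the treated range. The TNF difference was -0.16 without BL-8040 replicate 3.

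Among the other receptors, 2 of 7 were higher and 5 lower, with a median difference of -0.07. NGFR, the neurotrophin receptor p75, carries a death domain and is expressed in the sympathetic lineage. It had 7.42, 7.64 and 7.17 in BL-8040 replicates 1, 2 and 3, against 7.69, 8.01 and 7.65 in control replicates 1, 2 and 3. All 3 treated values were below the controls, although BL-8040 replicate 2 came within about a hundredth of a log2 unit of control replicate 3. The NGFR difference was -0.37 ± 0.14 (SE; limma adjusted p = 0.644), and -0.25 without BL-8040 replicate 3, the tumour with the lowest adrenergic marker mean. Of those markers, 9 of 10 had a lower mean after BL-8040; their part in the NGFR difference was not tested. TNFRSF21, the death receptor DR6, differed by -0.13 ± 0.09 (SE) and by -0.03 without BL-8040 replicate 3.

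Of the adaptors and RIP kinases, 3 of 10 were higher and 7 lower, with a median difference of -0.08. TRADD, the adaptor of tumour necrosis factor receptor 1, had 7.17, 7.32 and 7.34 in BL-8040 replicates 1, 2 and 3, against 7.55, 7.36 and 7.55 in control replicates 1, 2 and 3. The treated tumours were all lower, by 0.21 ± 0.09 log2 units in the mean (SE; 0.864-fold, limma adjusted p = 0.644), and the TRADD difference was -0.24 without BL-8040 replicate 3. DEDD2 is a nuclear protein with a death effector domain, the type of domain that FADD and caspase-8 also carry. It differed by -0.28 ± 0.12 (SE, limma adjusted p = 0.644) and by -0.14 without BL-8040 replicate 3, which was its lowest tumour at 6.58. TRADD did not reach an unadjusted limma p under 0.05 after median centring or with the replicate block, nor did DEDD2 with array weights.

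Of the other caspases, 8 of 10 were measured, 4 higher and 4 lower, with a median difference of 0.00. CASP4, an inflammatory caspase, had 4.04, 4.10 and 4.19 in BL-8040 replicates 1, 2 and 3, against 4.27, 4.58 and 4.21 in control replicates 1, 2 and 3. The treated values were all lower, with a difference of -0.24 ± 0.11 (SE, limma adjusted p = 0.644). The CASP4 difference was -0.13 without control replicate 2 and -0.28 without BL-8040 replicate 3. The CASP4 signal was at percentile 22.5. CASP4 did not reach an unadjusted limma p under 0.05 after quantile normalization, median centring or robust moderation with a variance trend. CASP14, a caspase of the outer skin that is not part of the apoptotic routes, differed by -0.30 ± 0.09 (SE, limma adjusted p = 0.644) at a signal of percentile 9.09. The CASP14 difference was -0.25 without BL-8040 replicate 3. CASP10, the nearest relative of CASP8, was dim in these tumours, at percentile 10.8, and differed by -0.06 ± 0.09 (SE; limma adjusted p = 0.876). The CASP10 difference was -0.11 without BL-8040 replicate 3 and 0.02 without control replicate 3. CASP10 was singled out after its values were seen.

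The mitochondrial factors and the IAP family, inhibitors of active caspases, had more members higher than lower, with none that passed. Of 6 mitochondrial factors, 4 were higher, with a median difference of 0.05; CYCS, which encodes cytochrome c, differed by 0.14 ± 0.08 (SE; limma adjusted p = 0.676) and AIFM1, the apoptosis-inducing factor, by 0.13 ± 0.07 (SE; limma adjusted p = 0.678) or by 0.076 without BL-8040 replicate 3. Of 7 measured IAP family genes and their partners, 5 were higher, with a median difference of 0.03. BIRC6, a very large IAP that is also a ubiquitin-conjugating enzyme, had 9.07, 9.05 and 9.08 in BL-8040 replicates 1, 2 and 3, against 8.95, 8.82 and 8.99 in control replicates 1, 2 and 3. All 3 treated values lay above the controls, by 0.15 ± 0.07 log2 units in the mean (SE, limma adjusted p = 0.652). The BIRC6 difference was 0.097 without control replicate 2 and 0.14 without BL-8040 replicate 3. XAF1, an antagonist of XIAP, differed by -0.24 ± 0.11 (SE; limma adjusted p = 0.646) and by -0.14 without BL-8040 replicate 3. Of 7 caspase substrates, 3 were higher and 4 lower; DFFA, the inhibitor of the apoptotic nuclease, differed by -0.15 ± 0.08 (SE; limma adjusted p = 0.661) and by -0.087 without BL-8040 replicate 3. ROCK1, a kinase that caspases activate by cleavage, differed by 0.14 ± 0.11 (SE, limma adjusted p = 0.742). The ROCK1 difference was 0.021 without control replicate 3 and 0.11 without BL-8040 replicate 3. Over the 50 genes, the groups did not overlap in 9, or 18%, with 2 higher and 7 lower, against 14% of all genes.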

How the data were processed

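The values deposited by the authors were taken as log2 signals, since they lie between 1.08 and 13.2; each array has its own column. The submitters' processing notes name Partek 6.6. How background was corrected, arrays were normalized and probes were summarized was not given by the sources used here. RNA was extracted with Trizol and 200 ng was labelled, per the labels' protocols. In the labels the organism is mouse, that of the host. Symbols were taken from GEO's platform annotation, where 19460 of 33297 probe sets had exactly 1; the brightest probe set by 6-array mean was kept per gene, and dim genes were kept. Groups were compared by limma 3.58.1 (lmFit, eBayes; R 4.3.3) in a two-sided test with group as the only term, and Benjamini-Hochberg adjustment over 18417 genes and a threshold of 0.05; intervals are at 95%. The test was checked on simulated data. The number of arrays limits the precision; p-values reflect the spread between mice, 3 per group. Same-numbered arrays did not deviate together (r of deviations between -0.037 and 0.077), so numbers were not taken as pairs. The 8 genes and all lists were chosen with earlier results of these data known. In each of the 7 lists the 2 genes with the smallest unadjusted p were named, with the 3 genes most like CASP8. Of the 58 listed pathway genes, 8 were not analysed here. Alternatives were quantile normalization, median centring, a filter on dim genes, the mean of probe sets, array weights, robust moderation with a variance trend, the replicate block and leaving out each array. Human sequences were not used here.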

Additional observations from a re-analysis of the deposited data

How the results depend on the processing

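With the replicate number as a block, the 8 genes and the 50 pathway genes again held 0 calls at an adjusted p under 0.05. There, 6 pathway genes had an unadjusted limma p under 0.05 (FAIM2 in place of TRADD), or 12% against 8.08% of all genes. CASP8 again differed by 0.15 log2 units, and the block changed no call at an adjusted p. At an unadjusted p under 0.05 instead of an adjusted one, 1422 genes, 6 pathway genes and 0 of the 8 genes passed. Calls at an adjusted p stayed at 0 in all settings run. With genes at or above the median signal only, fewer genes were tested, and 714 genes and 3 of 29 pathway genes had an unadjusted p under 0.05. The shares were 7.75% of all genes tested and 10.3% of the pathway genes. With median centring 3 pathway genes did so (6%, against 7.37% of all genes). Groups did not overlap in 1 of the 8 genes (CASP9) after quantile normalization and after median centring, where 15% and 13.3% of all genes did not overlap. With 1 array left out, between 905 and 1838 genes and between 0 and 2 of the 8 genes had an unadjusted p under 0.05. The 2 were FAS and TNFRSF10A without BL-8040 replicate 2, where 8.06% of all genes did so. Between 2 and 8 pathway genes did so. The 2 were 4% without control replicate 2, against 4.91% of all genes. The 8 were 16% without control replicate 1, against 9.98% of all genes. Groups then did not overlap in 0 to 4 of the 8 genes: FADD, CFLAR, CASP8 and CASP9 without control replicate 1 (29.5% of all genes), and FAS, TNFRSF10A and CASP9 without BL-8040 replicate 2 (25% of all genes), where fewer samples make separation easier. The median difference of the 8 genes ranged from 0.02 to 0.05 and the CASP8 difference from 0.06 to 0.22. Signs turned for TNFRSF10B without BL-8040 replicate 3 (0.076) and without control replicate 2 (0.079; range -0.16 to 0.079), for FADD without control replicate 1 (-0.021; range -0.021 to 0.044), for CFLAR without control replicate 2 (-0.0088; range -0.0088 to 0.10) and for APAF1 without BL-8040 replicate 1 (-0.0025; range -0.0025 to 0.12); the cause was not tested. The other CFLAR probe set, an alternative chosen after seeing the data, kept its sign (0.03).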
